A study of Homo sapiens with 4 samples.

Results

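SBNO2, the gene for strawberry notch homolog 2, carried 78 of the 17625 RNA sites listed for the enzyme P5CS in NCI-H1299 cells, 0.443% of the list. The members are all sites of the list whose assigned gene symbol is SBNO2. The gene was chosen by its high number of listed sites and their intronic share, so these values are given as a description and no test was made on them. NCI-H1299 is an established human lung cancer line, labelled as lung adenocarcinoma. The 4 LACE-seq libraries fall into 2 made with an antibody against P5CS and 2 control libraries made with IgG, which is directed at no particular protein. LACE-seq amplifies cDNA ends from RNA pulled down with an antibody, so that contact places can be read on the genome. The deposited list holds positions only, without scores or values per library. At SBNO2 the signal with the P5CS antibody could therefore not be set against IgG, the depth is unknown, no value has a replicate error, and the cell label could not be checked against marker levels. Intervals are exact binomial 95% intervals over sites. They cover counting error only, and neighbouring sites of 1 gene are not independent, so they are too narrow.

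SBNO2 belongs to a family of helicase-like proteins that act as transcriptional coregulators in the nucleus, and SBNO1 is its paralog. In macrophages SBNO2 is known as a gene induced by interleukin 10 through STAT3, and in mice it takes part in the fusion of osteoclast precursors through DC-STAMP. An intron is removed from the transcript in the nucleus. A site inside an intron, if it comes from RNA, may therefore lie in unspliced RNA or in a spliced-out intron. It may also lie in another RNA made from the same stretch. A list of sites does not tell these apart.

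On hg38 the gene runs from 1174268 down to 1107638 on the minus strand of chromosome 19, and a shorter transcript starts at 1132221. The 5' end of the long transcript is the only place where a site fell into a stretch whose letters could be read, the RefSeq promoter window of GRCh38.p14. The site lies in the 5' UTR, 28 to 48 bases into the transcript, and is listed on both strands with the same edges, 1174220 to 1174240. The run is shown on the strand of the gene and on the opposite strand, with the site in capitals, because it is 1 of the pairs described below (chr19:1174219-1174248).
SBNO2 start site, minus strand: gaagtgagCGGCGGCAGCTGCGAGGCTCGg
SBNO2 start site, plus strand: cCGAGCCTCGCAGCTGCCGCCGctcacttc
Of the 21 bases of the site 17 are G or C. The 2 RefSeq windows of SBNO2, each with 250 bases before and 50 after a start, held this 1 position. The window at the short transcript's start held none.

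Most SBNO2 sites lay in introns, and most of these in the first intron of the long transcript. Introns held 67 sites, 85.9% (76.2 to 92.7), exons outside the untranslated regions 8, or 10.3% (4.53 to 19.2), and the 5' UTR 3, or 3.85% (0.80 to 10.8). The 3' UTR held 0. By the annotation, 3 of the exon sites and 11 of the intron sites belong to another gene, described below. By position those 3 exon sites lie inside intron 1 of the long SBNO2 transcript. Over the whole list 38.2% of sites were intronic. The annotation names intron 1 of 31 of ENST00000361757.8 for 48 sites, 61.5% of the gene's sites (49.8 to 72.3). The later introns of this transcript held few, with 1 site in intron 2, 1 in intron 3 and 4 in intron 4. The short transcript ENST00000438103.6 had 2 sites, an identical pair, in intron 1 of 28.

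Another 14 sites inside the same stretch are annotated to a different transcript, ENST00000702095.1 of the gene ENSG00000290166.1, although the list assigns them to SBNO2. They comprise 2 sites in its intron 1, 9 in its intron 2, 1 in its exon 2 and 2 in its exon 3, the last exon. The exon and intron numbers of this transcript rise with position, whereas those of SBNO2 fall, so the 2 genes run in opposite directions. By position alone, 62 of the 78 sites, 79.5% (68.8 to 87.8), lay between the outermost sites of intron 1, 1154440 and 1173640. This stretch of 19201 bases is 28.8% of the gene. It held 3.23 sites per kb, against 0.337 per kb in the rest of the gene, a ratio of 9.57. The outermost sites set the ends of this stretch, which raises its density somewhat. Counted over the whole list, 42.8% of intronic sites lay in a first intron of the named transcript, and 77.6% of those of SBNO2 did. The list share is pooled over sites, so it need not be that of a typical gene. In 1 gene with many sites 618 of 618 intronic sites lay in a first intron, and in another 43 of 704.

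Most sites lay near the start of the long transcript. Within 20 kb of it lay 65 sites, 83.3%, and beyond 20 kb there were 13. The 5 kb bins from the start held 21, 25, 10 and 9 sites. No later bin held more than 4. The emptiest stretch was the 3' part of the gene, where 15279 bases separate the lowest site, in the last exon at 1108260 to 1108280, from the next, in exon 4 of 29 at 1123560 to 1123580.

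**Figure D1:**
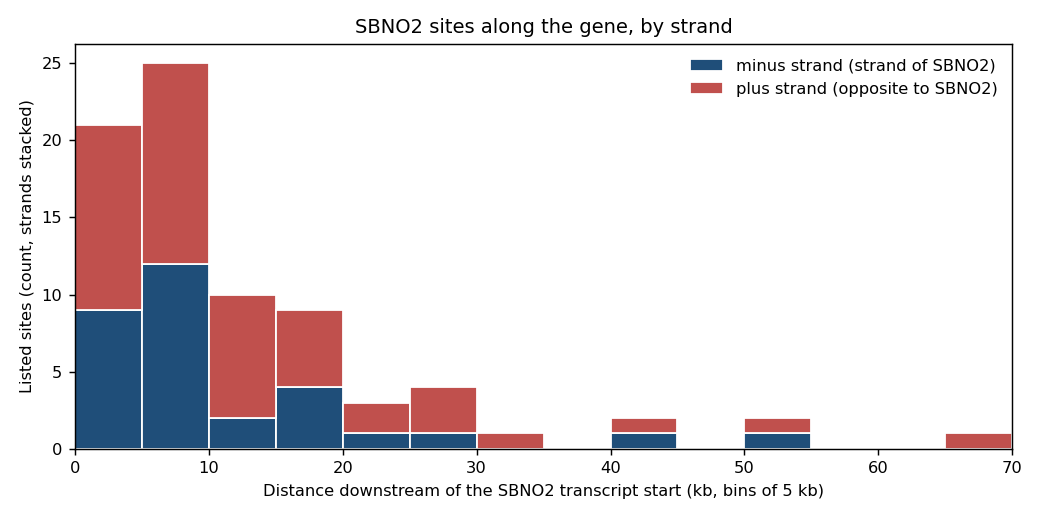
Number of listed SBNO2 sites in bins of 5 kb downstream of the start of the long transcript, with sites of the minus strand (that of the gene) and of the plus strand stacked. The bins nearest the start hold 21 and 25 sites, and 13 sites lie beyond 20 kb.

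Sites were grouped into clusters wherever neighbours lay no more than 1000 bases apart, which gave 15 clusters. Of these, 9 were a single position, and the 3 largest held 53 sites, 67.9%. All 3 lie in the 11.2 kb nearest the start. The largest had 31 sites between 1163040 and 1166480, 18 on the plus and 13 on the minus strand. The next had 12 sites between 1168460 and 1170540, 6 on each strand. The third had 10 between 1171740 and 1174240, 6 plus and 4 minus, and includes the site at the transcript start printed above. Within the largest cluster the 23 distinct starts lay 20 to 460 bases apart, with a median step of 120.

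Wide sites were concentrated in the largest cluster. All coordinates of the list are multiples of 20 bases, so a site is 21, 41, 61 bases wide and so on, and an edge is known only to about 1 step. Of the 78 sites, 55 had the smallest width of 21 bases, 70.5% (59.1 to 80.3), against 74.3% over the list. There were 14 sites of 41 bases, 3 of 61 and 4 of 81. The widest were 1 of 141 bases on the plus strand (1164820 to 1164960) and 1 of 161 on the minus strand (1164820 to 1164980), which overlap. In the largest cluster 16 of 31 sites were wider than 21 bases, 51.6%, and in the rest of the gene 7 of 47, or 14.9%. All 6 sites of 81 bases or more lay in that cluster. Its 16 wider sites fell within 1901 bases, 1164340 to 1166240, where 22 sites covered 46.0% of the stretch. In the whole gene the sites covered 1772 bases, 2.66% of its length.

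**Figure D2:**
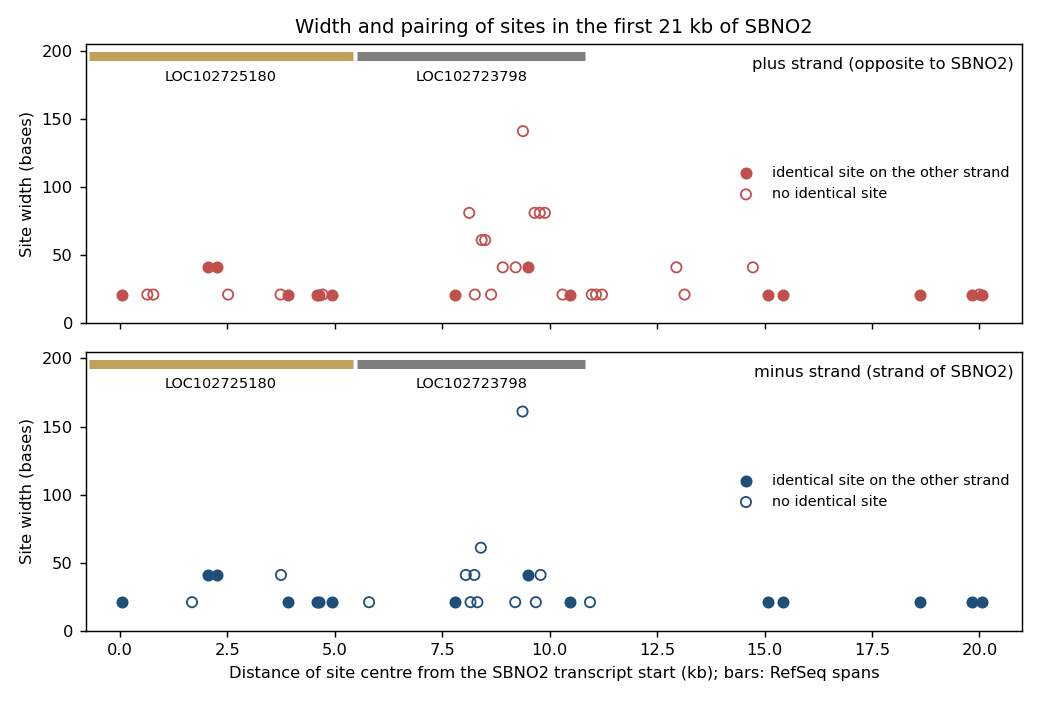
Width of each site in bases against the distance of its centre from the transcript start in kb, for the plus strand (top) and the minus strand (bottom). Filled points have a site of identical edges on the other strand, and bars at the top are the RefSeq spans of 2 lncRNA genes. The sites of 81 to 161 bases all lie under LOC102723798, and none of them is filled.

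Sites on both strands often shared a place, and the plus strand, opposite to SBNO2, held more. There were 47 sites on the plus strand, 60.3% (48.5 to 71.2), and 31 on the minus strand. The interval includes an even split, but each identical pair counts equally on both strands by definition. This pulls the share toward an even split, so the interval cannot decide on strand balance. The share over the whole list, pairs included, was 58.3%. In all, 36 sites, 46.2% (34.8 to 57.8), formed 18 pairs with identical edges on both strands, against 39.3% over the list. Among intronic sites 44.8% of those of SBNO2 were in pairs, and 31.6% of the 6658 elsewhere. The 6658 are pooled over genes, so genes with many intronic sites weigh most, and 1 gene alone held 704 of them. Of the 42 unpaired sites, 29 were plus and 13 minus. In this remainder 16 sites, 8 on each strand, overlapped a site of the other strand with different edges. The other 26 stood alone on their strand, 21 plus and 5 minus. The strand share among unpaired sites of the whole list was not computed, so these counts are not shown to be particular to SBNO2.

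Identical pairs were rarer in the largest cluster than in the rest of the gene, among narrow and wider sites alike. The largest cluster had 6 of its 31 sites in pairs, 19.4%, and the rest of the gene 30 of 47, or 63.8%. In the cluster 4 of 15 sites of 21 bases and 2 of 16 wider ones were in pairs, and elsewhere 26 of 40 and 4 of 7. Any overlap with the other strand was about as frequent in both, with 20 of 31 sites, 64.5%, and 32 of 47, 68.1%. In the whole gene 66.7% of sites overlapped the other strand, and in the list 59.2%. These clusters were formed after the positions were known, so their shares are descriptions with no test. Plus-strand sites covered 1567 bases, minus-strand sites 971, and 766 bases were covered on both.

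RefSeq places 2 long noncoding RNA genes over the same end of SBNO2. LOC102723798 (1163451 to 1168740) overlapped 28 of the 78 sites, 15 plus and 13 minus, 16 of them wider than 21 bases and 6 in 3 identical pairs. LOC102725180 (1168833 to 1174993), which extends past the SBNO2 start, overlapped 21, with 12 plus, 9 minus, 5 wider sites and 7 pairs. Together they overlap 49 of the 78 sites. The RefSeq spans used here give no strand for them. Whether either is the same gene as ENSG00000290166.1, to which the list assigns 0 sites, was not checked. By its numbering that gene runs opposite to SBNO2, and of the 14 sites annotated to it 8 were plus and 6 minus. Over the whole list 58.3% of sites were opposite to their assigned gene, so the listed strand was not taken to name the RNA of origin. Whether a site here comes from SBNO2 RNA or from RNA of an overlapping gene was not tested.

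Sites near SBNO2 were uneven between genes. Outside its span 19 RefSeq genes lie within 100 kb, and 7 of them overlapped a site. TMEM259, 86.5 kb away, had 17, or 1.48 per kb of gene against 1.17 per kb for SBNO2. ARHGAP45 had 3, or 0.145 per kb, and the U6 small nuclear RNA gene RNU6-2 and the NMDA receptor subunit gene GRIN3B, which overlaps TMEM259 and shares its sites with it, had 2 each. CIRBP, a cold-inducible RNA-binding protein, LOC107985303 and LOC105372236 had 1 each, and the last pair share their site. GPX4, a glutathione peroxidase whose gene ends 0.859 kb from SBNO2, had 0, as did POLR2E, a subunit of RNA polymerases, and STK11, the kinase LKB1. The nearest listed sites outside SBNO2 lay 21.9 kb below and 87.7 kb above it. The list holds called sites only, so a gene without a site is not shown to lack contact.

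The paralog and 4 genes of the pathway also had sites. SBNO1 on chromosome 12 had 1 site of 21 bases, in exon 30 of 31. A list of 19 genes ran from the interleukin 10 and interleukin 6 receptors through STAT3 to its targets and osteoclast fusion. Of these, 4 had an assigned site, 21.1%, against 13.1% of the 20056 protein-coding genes of RefSeq. The difference rests on few genes and was not tested. IL6ST, the shared receptor subunit gp130, had 4 sites in 2 pairs, 2 sites in the 3' UTR and 2 in the 5' UTR. The receptor-associated kinases had JAK2 with 3 sites, all in intron 22 of 24 and opposite to the gene, and JAK1 with 1 in intron 1 of 24. DCSTAMP, a membrane protein of osteoclast fusion, had 1 site, annotated as distal intergenic. Together IL6ST, JAK2, JAK1 and DCSTAMP had 9 sites, none wider than 21 bases, and the median over all assigned genes was 2 sites a gene. STAT3, SOCS3, IL10RA and IL10RB were among the 15 with 0.

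By site count SBNO2 ranked 14 among the 114 assigned genes with at least 20 sites, and 6 among the 66 protein-coding ones. Its intronic share of 85.9% exceeded that of 92 of these genes, whose median was 7.07%, and the median of the protein-coding ones was 35.9%. In the other shares it lay near the middle. The share opposite to the gene was 60.3% against a median of 59.1% over the 114 genes. The share in pairs was 46.2% against 41.5%, and the share at the smallest width 70.5% against 68.8%. SBNO2 had 1.17 sites per kb of gene, against a median of 0.918 over the 66 protein-coding genes, 23 of which had more. The median over all 114 genes was 1.90, which includes very short noncoding genes with high values per kb.

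The intronic genes set beside it differed in where and how the sites lay. NTM, the gene of the neuronal adhesion protein neurotrimin, had 165 of its 169 intronic sites in a first intron and 54.3% of all its sites in pairs. BRF1, a subunit of an RNA polymerase III initiation factor, had 1 of 99 in a first intron, and 97.0% of its sites were 21 bases wide. DAZAP1, an RNA-binding protein whose gene lies on the same arm of chromosome 19, had 53 sites, with 22 of 48 intronic ones in a first intron and 67.9% in pairs. For SBNO2 the count in a first intron of any named transcript was 52 of 67. Likeness was measured as the mean absolute difference over 4 shares, those in introns, opposite to the gene, in pairs and at the smallest width. Over the 114 genes those near to SBNO2 included CMIP at 4.55 percentage points, EEF1D, an elongation factor subunit, at 5.71, NFIC, a transcription factor of the nuclear factor I family, at 6.70, and MAEA, a ubiquitin ligase subunit, at 7.02. In a first intron lay 20 of 20 intronic sites of CMIP, 52 of 52 of EEF1D, 16 of 17 of NFIC and 9 of 19 of MAEA. These measures come from the same list that led to the choice of SBNO2, and the differences were not tested.

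**Figure D3:**
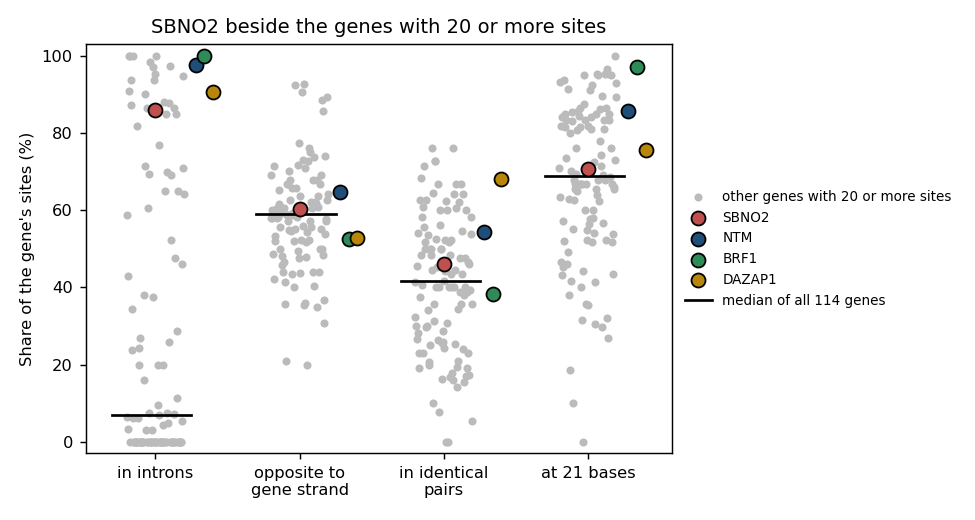
Share in percent of each gene's sites in introns, opposite to the gene strand, in identical pairs and at 21 bases, with 1 point for each of the 114 genes with at least 20 sites. The line is the median of all 114 genes. SBNO2 is at 85.9% for introns against a median of 7.07%, and within 5 percentage points of the median in the other shares.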

How the data were processed

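The 4 LACE-seq libraries of NCI-H1299 cells, 2 anti-P5CS and 2 IgG, were grouped by sample title, and the labels do not tell whether replicates are separate cultures. Per the submitters' processing notes, fastp 0.23.2, STAR 2.7.10a and the build hg38 were used, with no step named. The sources used here do not give how sites were called, at which threshold, against IgG or not and on pooled replicates or not. The list that the authors deposited holds other values only, that is positions, widths and annotation, and no measured level, so the planned comparison of anti-P5CS with IgG was not possible. The list holds 0 columns of values per library.

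Sites were taken by the symbol SBNO2, and coordinates as deposited. Whether the start of a site is counted from 0 or 1 is not stated. The width counts both edges on a grid of 20 bases, so each site may be 1 base shorter. A pair is 2 sites with identical edges on both strands. Clusters join sites no more than 1000 bases apart. Intron numbers come from the annotation text, gene spans from the RefSeq table for GRCh38.p14 (overlap of at least 1 base), and sequences from RefSeq promoter windows of GRCh38.p14. Other genes are named by symbol, or by identifier without one. The genes named are SBNO2, SBNO1, genes with a site within 100 kb, members of the fixed pathway list with a site, NTM, BRF1, DAZAP1 and the 5 genes most alike, of which 1 is not reported here. GPX4, POLR2E, STK11, STAT3, SOCS3, IL10RA and IL10RB, with 0 sites, were added after the values were seen. The members and lists were chosen with earlier results of these data known. Cluster and pair finding was tested on simulated data. Python 3.11.15, pandas 2.3.3, numpy 2.4.6, scipy 1.17.1 and matplotlib 3.10.9 were used.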

Additional observations from a re-analysis of the deposited data

How the results depend on the processing

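Each count or share of SBNO2 sites was recomputed under other settings, and 31 of 42 values stayed within 1.5 times the main count or within the interval of the main share. With sites taken by the RefSeq span all 7 results had their main values. The number of sites, 78, was 47 on the plus strand, 31 on the minus strand and 23 with wider sites only. The intronic share was 95.7% among wider sites. The share in pairs was 30% with each pair counted once, 58.1% on the minus strand and 26.1% among wider sites. The 15 clusters became 28 with a gap of 200 bases, 5 with a gap of 5000 and 5 with wider sites only. The share in the intron with most sites was 79.5% when intron 1 was taken by position. Each of these settings keeps fewer sites or uses another definition, and why the values moved was not tested. Of the 23 wider sites 16 lay in the largest cluster, where identical pairs were rarer than in the rest of the gene. The share opposite to the gene was 69.0% without pairs, and the same share over the list was not computed. With 1 strand only it is fixed by construction, as is the width share with sites of 1 width class, and neither was computed. No paired analysis was possible because the list has no value per library, which also prevented leaving out a replicate and the comparison of anti-P5CS with IgG. The depth of the libraries is unknown, and with 78 sites of 1 gene the shares are known only roughly.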
